A study of Homo sapiens with 6 samples.

Results

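The genes described here are SRF, the gene of serum response factor, and 9 genes known as targets of serum stimulation, namely IER2, IER3, IER5, IER5L, CCN1, CCN2, MCL1, VCL and ACTB. They were chosen by name, and all 10 were found among the 19823 genes listed and among the 18130 with enough reads to be tested. Poly(A) RNA-seq was used on glutamatergic neurons (iNeurons) that doxycycline-inducible neurogenin makes from human pluripotent stem cells of the induced line WTc11. There were 2 groups of 3 samples, untreated neurons and neurons given isoproterenol, an agonist of β-adrenergic receptors that raises cAMP. In both groups RBM12, which encodes a protein that binds RNA, was knocked down by CRISPR interference, and the neurons were of the parental line with its native level of receptor. A sample with a control guide was not analysed here, so the values describe RBM12-depleted neurons of a single clonal line. The labels of these samples give no dose and no duration. They do not say whether replicates came from separate cultures, so the p-values measure the spread between these samples, which may be technical.

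Serum response factor binds CArG boxes in the promoters of early genes and of cytoskeletal genes. It works with ternary complex factors of the Ets family, which answer to MAP kinase signaling, or with the myocardin-related factors MRTFA and MRTFB, which answer to the pool of free actin. The cAMP pathway acts in the main through protein kinase A and CREB, which binds the cAMP response element, and some early genes such as FOS carry sites for both factors. The comparison asks whether the serum-type genes moved with the cAMP-type early genes when the receptor was activated.

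The member promoters at hand differ in which of these sites they hold, and the stretches with matches are printed to show this. RefSeq promoters on GRCh38.p14, from 250 bases before to 50 bases after the start site, were at hand for 6 of the 10 members, in 7 entries, as SRF had 2. IER3, CCN1, MCL1 and ACTB had no entry, so nothing is said of their sites. Letters were searched on both strands for the CArG box, for the cAMP response element TGACGTCA and its shorter core TGACG, for GGAATG, which TEAD factors bind, and for CCGGAA, which Ets factors bind. Every TGACGTCA match also counts as a TGACG match. In the lines below the capitals mark these matches, each sequence is read 5′ to 3′ on the strand of its gene, and CGTCA and TTCCGG are TGACG and CCGGAA on the other strand.

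SRF: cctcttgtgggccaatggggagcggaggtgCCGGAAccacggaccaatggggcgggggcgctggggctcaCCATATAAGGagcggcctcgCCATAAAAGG
IER2: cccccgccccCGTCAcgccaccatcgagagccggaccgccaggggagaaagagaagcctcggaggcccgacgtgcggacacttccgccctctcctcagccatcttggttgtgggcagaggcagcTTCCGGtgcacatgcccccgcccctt
IER5: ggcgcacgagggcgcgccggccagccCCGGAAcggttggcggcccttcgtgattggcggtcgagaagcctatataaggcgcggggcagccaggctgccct
CCN2: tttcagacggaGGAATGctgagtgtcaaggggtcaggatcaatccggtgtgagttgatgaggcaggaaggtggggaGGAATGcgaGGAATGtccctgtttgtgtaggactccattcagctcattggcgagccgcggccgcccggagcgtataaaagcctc
VCL: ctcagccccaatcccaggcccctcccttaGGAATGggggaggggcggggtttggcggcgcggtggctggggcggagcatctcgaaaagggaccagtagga

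The SRF stretch, chr6:43171169-43171268 on the plus strand, ends at the base before the start site. It holds 2 CArG boxes, 30 to 21 and 10 to 1 bases before the start, and a CCGGAA 70 to 65 bases before it. Only 1.11% of 17137 promoters of tested genes held a CArG box and 6 of them (0.035%) held 2 or more, while CCGGAA was found in 24.7%. Farther up, a TGACG lay 149 to 145 bases before the same start, and the second SRF entry held none of the letters searched.

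The IER2 stretch, chr19:13150261-13150410 on the plus strand, holds TGACG 140 to 136 and CCGGAA 26 to 21 bases before the start, both on the reverse strand. TGACG was found in 30.9% of the promoters, so this match is a common one. The IER5 stretch, chr1:181088600-181088699 on the plus strand, holds CCGGAA 74 to 69 bases before the start.

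The CCN2 stretch, chr6:131951393-131951552 on the minus strand, holds 3 GGAATG matches, which begin 169, 104 and 95 bases before the start. One match or more was found in 11.4% of promoters, and 9 promoters (0.0525%) held 3 or more. The VCL stretch, chr10:73997916-73998015 on the plus strand, holds GGAATG 171 to 166 bases before the start. It lies within the span of the gene as GENCODE draws it, which begins upstream of this start site. IER5L held none of the letters searched, and TGACGTCA, found in 2.63% of promoters, was in none of the 7 entries. A missing match says only that these letters are not in this window.

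The samples held between 18116816 and 21488793 recovered reads. The levels of all 10 members could be read in every sample. Per kilobase of annotated exon, the mean over the 6 samples was highest for ACTB, which encodes cytoplasmic β-actin, at 10680 normalized counts. IER5L, a nuclear protein of the IER family, followed at 651.3 and MCL1, an anti-apoptotic protein of the BCL2 family, at 538.6. IER2, a nuclear regulator of transcription, stood at 365, SRF at 147.9 and VCL, which encodes the adhesion protein vinculin, at 108.2. IER5, a regulator tied to protein phosphatase activity, stood at 80.99 and IER3, a regulator of survival under stress, at 69.56. The secreted matrix proteins CCN1 and CCN2 came last, at 13.7 and 7.68. Each neighbor in this order differed beyond the range of the 6 samples, except IER5 and IER3, whose ranges overlapped. Among all tested genes, ACTB lay at the percentile 99.8, SRF at 69.6, CCN1 at 22.9 and CCN2 at 15.1 of the level per kilobase.

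**Figure D1:**
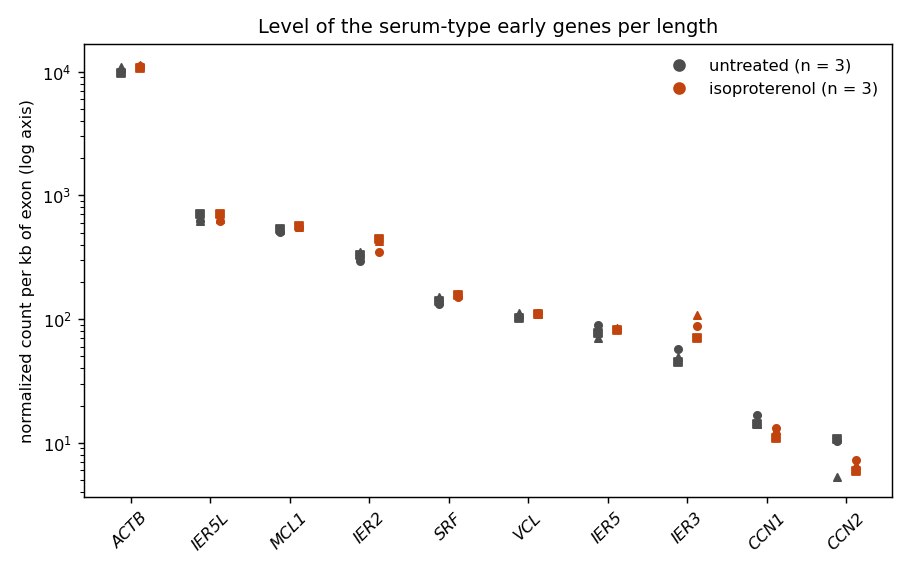
Normalized count per kilobase of exon (log axis) of each member in the 3 untreated (grey) and 3 isoproterenol (orange) samples; circles, squares and triangles are replicates 1, 2 and 3. Members are ordered by their mean, from 10680 for ACTB to 7.68 for CCN2, and only IER5 and IER3 overlap in range.

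These are bulk samples, in which fewer cells of a type and less RNA per cell cannot be told apart. Summed over their list, glutamatergic neuron markers came to between 147600 and 154100 normalized counts per sample, with overlapping groups. STMN2 alone had between 64800 and 66310, while TUBB3 had between 69.2 and 94.4. NEUROD2, another of the markers, had at most 10.4 and was not tested. Fibroblast markers, 3 of 9 of which were in the table, summed to between 22.6 and 41.9, smooth muscle markers (3 of 5) to between 197.4 and 227.5, and pluripotency markers (3 of 7) to between 15.4 and 28.8. Astrocyte markers (3 of 6) summed to between 3026 and 3469. Most of this was SLC1A2, at 2892 to 3294, while AQP4 had 90.3 to 133.5 and S100B 41.6 to 59.0. Of the endothelial and the microglial markers, 0 of 5 each were among the genes listed. Stress genes, 8 of 8, summed to between 8719 and 9073, again with overlapping groups.

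In the fit without regard to replicate numbers, 0 of the 10 members passed FDR 0.05 (limma, Benjamini-Hochberg over all genes tested), where 0.0165% of all genes passed. The smallest adjusted p was 0.205, for IER3. At an unadjusted p under 0.05, 4 members passed, all higher with isoproterenol (IER2, IER3, MCL1 and ACTB), against 4.39% of all genes that were higher at this level. edgeR and DESeq2 without pairs also called 0 members.

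Same-numbered samples deviated together from their group means and were treated as pairs. With replicate number as a block, 4 of 10 members passed FDR 0.05 in limma, all of them higher with isoproterenol: IER2, IER3, MCL1 and ACTB. Among all genes 2.82% were called higher and 2.06% lower in this fit. edgeR with the block called the same 4 members, where 2.92% of all genes were called higher. DESeq2 with the block called only IER2 and ACTB, of 8 members with an adjusted p, where 0.518% of all genes were called higher. "Rose" below is used of a call in the limma fit with the block.

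Apart from IER3, the log2 fold changes of the members were at most 0.34 in size, and those of CCN1 and CCN2 rest on few reads and have wide intervals. The median log2 fold change of the 10 members was 0.090, with 8 higher, beside 0.0015 over all genes, of which 50.5% were higher. In 3 members the isoproterenol values all lay above the untreated ones (IER2, IER3 and MCL1) and in 1, CCN1, all lay below, against 6.73% and 6.19% of all genes. Within the pairs, 5 members were higher in all 3 (SRF, IER2, IER3, MCL1 and ACTB) and CCN1 was lower in all 3, against 18.5% and 17.6% of all genes.

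**Figure D2:**
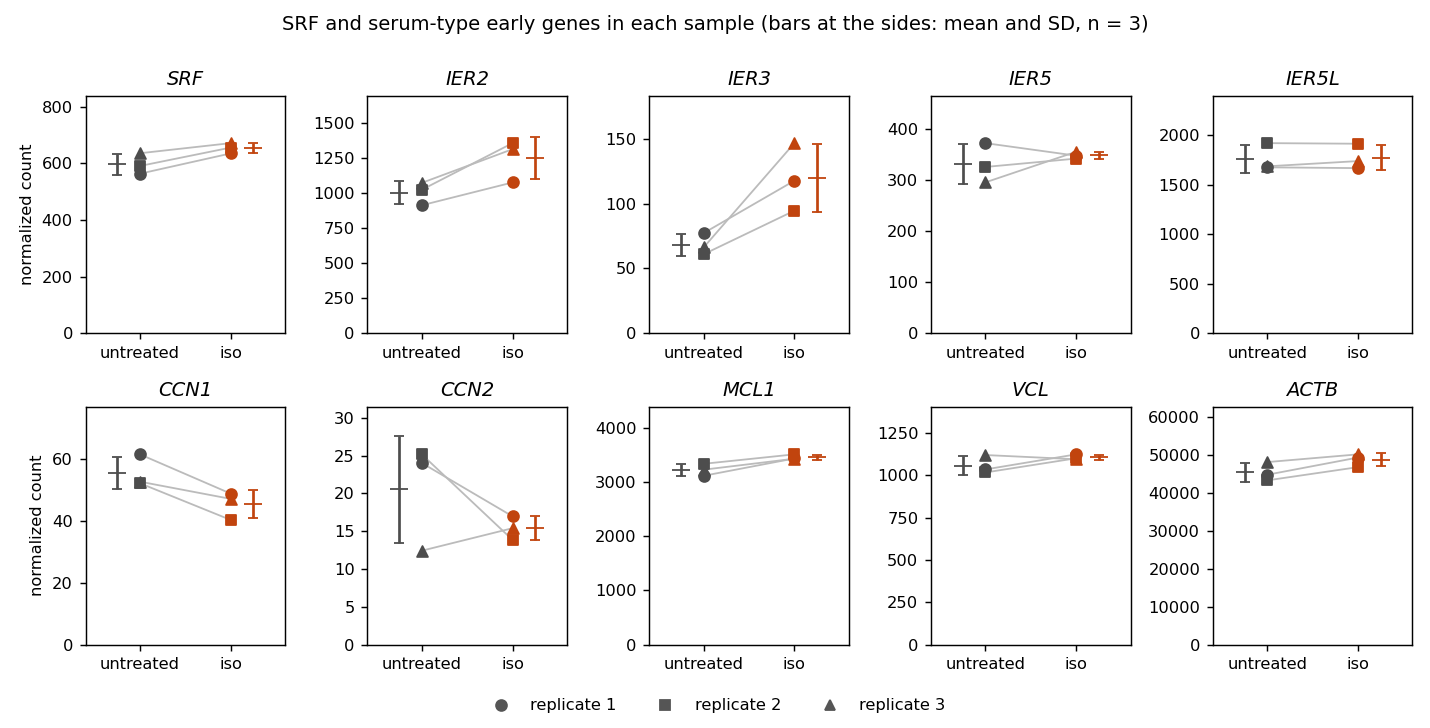
Normalized count of each member in every sample, with lines joining same-numbered samples (circle, square and triangle for replicates 1, 2 and 3) and side bars for the mean and SD (n = 3). IER3 goes from 60.96 to 77.27 in untreated (grey) to 94.57 to 146.7 in isoproterenol samples (orange), while the lines of IER5L are nearly flat.

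SRF (ENSG00000112658, chromosome 6, 43171269 to 43181506) stood at 563.9, 591.2 and 636.2 normalized counts in replicates 1 to 3 untreated, and with isoproterenol at 635.6, 656.2 and 671.9. The groups overlapped only in that untreated replicate 3 lay just above isoproterenol replicate 1. The mean was 597.1 ± 36.5 untreated and 654.6 ± 18.2 with isoproterenol (SD, n = 3), and the log2 fold change was 0.13 (SE 0.071, 95% interval -0.015 to 0.28). SRF did not pass, with a limma adjusted p of 0.680 without the block and 0.244 with it. Within pairs 1, 2 and 3 it was higher by 0.17, 0.15 and 0.079 on the log2 scale, with a blocked 95% interval of 0.012 to 0.26, so a difference above 0.26 lay outside it.

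Of the tested genes outside the members averaging 100 normalized counts or more, those whose log2 values followed SRF most closely over the 6 samples were C1QTNF4 (r = 0.987), TAPT1 (0.984) and GLYR1 (0.983). They are the highest of 11580 correlations, each over 6 samples that share their libraries, and are a description only. None of the 3 passed FDR 0.05 with the block (smallest limma adjusted p 0.314).

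Among the partners of SRF, 0 of the 16 tested of 20 listed passed with or without the block, with a smallest limma adjusted p of 0.219 with it. Of all genes 2.82% were called higher and 2.06% lower with the block, so 0 of 16 is near these shares. At an unadjusted p under 0.05 without the block there were 0 partners, where 4.39% of all genes were higher. The median log2 fold change of the partners was 0.076, with 12 higher. The list also takes in YAP and TEAD factors, whose targets are read separately below. Its log2 fold changes ran from -0.25 to 0.72. The gene at the low end had 9 to 21 reads per sample and that at the high end 3 to 15. For partners with so few reads a missing call says little. The values of 4 partners are given by value, chosen for their role after the values were seen. MRTFA, the actin-sensing cofactor, averaged 1450 ± 50.6 normalized counts untreated and 1488 ± 24.2 with isoproterenol, and its relative MRTFB 951.1 ± 25.4 and 1008 ± 29.0. The ternary complex factors ELK1 and ELK4 averaged 561.5 ± 12.4 and 173.6 ± 25.3 untreated and 566.6 ± 24.9 and 180.7 ± 1.09 with isoproterenol. All 4 differences lay between 0.012 and 0.083 on the log2 scale.

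IER3 (ENSG00000137331, chromosome 6, 30743199 to 30744548), which encodes a regulator of apoptosis, showed the largest difference of the 10 members. It stood at 77.27, 60.96 and 66.21 normalized counts in replicates 1 to 3 untreated, and with isoproterenol at 117.7, 94.57 and 146.7. Every isoproterenol value lay above every untreated one. The mean went from 68.2 ± 8.33 to 119.7 ± 26.1, or 75.6% higher, with a log2 fold change of 0.79 (SE 0.18, 95% interval 0.41 to 1.16). IER3 rose with the block (limma adjusted p 2.81e-04) and did not pass without it (0.205). The blocked edgeR test passed (1.10e-04) and the blocked DESeq2 test did not (0.0997).

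Pair 3 carried more of the IER3 difference than the others, at 1.14 on the log2 scale against 0.60 and 0.63 in pairs 1 and 2. Without pair 3 the blocked log2 fold change was 0.61 and the call was lost, while without isoproterenol replicate 2 the fit without the block gave 0.94 and passed (limma adjusted p 0.0299). IER3 shares 440 exonic bases (32.6% of its own) with IER3-AS1 on the opposite strand and whether counting used strand is not stated. IER3-AS1 had a mean of 23.9 normalized counts untreated and 24.0 with isoproterenol.

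IER2 (ENSG00000160888, chromosome 19, 13150411 to 13154911) stood at 911.6, 1022 and 1071 normalized counts untreated and at 1074, 1354 and 1311 with isoproterenol, in replicates 1 to 3. The groups did not overlap, though the lowest isoproterenol value was only just above the highest untreated one. The mean went from 1001 ± 81.5 to 1246 ± 150.9 (24.4% higher), a log2 fold change of 0.31 (SE 0.085, 95% interval 0.13 to 0.49). IER2 rose with the block (SE 0.048, limma adjusted p 4.79e-07) and did not pass without it (0.347). It was higher by 0.24, 0.41 and 0.29 within pairs 1, 2 and 3, and kept its blocked call with each pair left out in turn. Its exons share 946 and 662 bases with 2 unnamed long noncoding genes on the opposite strand, which were not analysed here, so its level is uncertain to that extent.

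IER5 and IER5L, relatives of IER2, gave no call. IER5 (ENSG00000162783, chromosome 1, 181088700 to 181092900) stood at 372.8, 326.1 and 295.9 normalized counts untreated and at 348.2, 342.5 and 355.9 with isoproterenol. Its untreated values spread over both sides of the isoproterenol ones, and pairs 1, 2 and 3 gave -0.098, 0.071 and 0.27. The log2 fold change was 0.080 (95% interval -0.12 to 0.28, limma adjusted p 0.888, and 0.720 with the block).

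IER5L (ENSG00000188483, chromosome 9, 129175552 to 129178261) stood at 1674, 1918 and 1684 normalized counts untreated and at 1666, 1912 and 1737 with isoproterenol. Pairs 1, 2 and 3 differed by only -0.0065, -0.0043 and 0.044 on the log2 scale. The log2 fold change was 0.011 (95% interval -0.12 to 0.14, limma adjusted p 0.981, and 0.937 with the block). A difference of more than 0.14 lay outside this interval. IER5L shares 1132 exonic bases (41.8%) with IER5L-AS1, which had a mean near 51.0 normalized counts untreated.

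Whether IER2 differed from its relatives was tested on log2 ratios chosen after the values were seen, by two-sided exact permutation of the 6 samples, whose smallest possible p is 0.1. The log2 ratio of IER2 to IER5L was 0.30 higher with isoproterenol (exact p 0.1, adjusted 0.3 over 3 ratios, higher in 3 of 3 pairs). That of IER2 to IER5 was 0.23 higher (exact p 0.3, adjusted 0.45, higher in 3 of 3 pairs). This test could not have passed 0.05 with 3 samples a group, and it ignores the pairs, within which the ratio to IER5L changed by 0.24, 0.41 and 0.25 and that to IER5 by 0.33, 0.34 and 0.026. It therefore does not settle whether these relatives responded alike.

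MCL1 (ENSG00000143384, chromosome 1, 150560895 to 150579738), which holds back apoptosis and whose protein is short-lived, stood at 3123, 3345 and 3236 normalized counts untreated and at 3444, 3520 and 3439 with isoproterenol. The groups did not overlap, and the mean went from 3235 ± 110.9 to 3468 ± 45, or 7.21% higher. The log2 fold change was 0.10 (SE 0.044, 95% interval 0.0083 to 0.19), with 0.14, 0.073 and 0.088 in pairs 1, 2 and 3. MCL1 rose with the block (limma adjusted p 0.0336, edgeR 0.0256) but not in DESeq2 with the block (0.650), and did not pass without it (limma adjusted p 0.610). The blocked call was lost whichever pair was left out, with log2 fold changes of 0.081, 0.11 and 0.11 without pairs 1, 2 and 3. Its exons share 328 bases with ADAMTSL4-AS1 on the same strand.

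Of the BCL2 family, 15 of 16 listed genes were tested and 2 rose with the block, MCL1 and BCL2L11, with 0 lower, against 2.82% of all genes higher and 2.06% lower. BCL2L11, which encodes the pro-apoptotic protein BIM, stood at 691.3, 660.9 and 655.8 normalized counts untreated and at 900.0, 899.5 and 745.7 with isoproterenol. The groups did not overlap, and its log2 fold change was 0.34 (SE 0.075, limma adjusted p 0.184, and 7.86e-06 with the block). The protein products of these genes bind each other with opposite roles in apoptosis. The family's median log2 fold change was 0.029, with 8 higher.

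ACTB (ENSG00000075624, chromosome 7, 5526409 to 5563902) stood at 44750, 43270 and 48090 normalized counts untreated and at 49290, 46760 and 50130 with isoproterenol. The groups overlapped, as each pair had its own level, but the isoproterenol sample was the higher in every pair, by 0.14, 0.11 and 0.060 on the log2 scale. The mean went from 45370 ± 2467 to 48730 ± 1757 (7.40% higher), a log2 fold change of 0.10 (SE 0.038, 95% interval 0.025 to 0.18). ACTB rose with the block in limma (SE 0.014, adjusted p 3.13e-08), edgeR (2.40e-05) and DESeq2 (0.0246), and in limma also with each pair left out in turn. Without the block its limma adjusted p was 0.536.

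ACTB and ACTG1, the other cytoplasmic actin, are near-identical in coding sequence and have many pseudogene copies, so reads may be shared between them and both levels are uncertain. ACTG1 averaged 56950 ± 833.7 normalized counts untreated and 57950 ± 1473 with isoproterenol (log2 fold change 0.025, limma adjusted p 0.360 with the block). The log2 ratio of ACTB to ACTG1 was 0.079 higher with isoproterenol, in 3 of 3 pairs (two-sided exact permutation p 0.5, adjusted 0.5). That test ignores the pairs, within which the ratio changed by 0.084, 0.081 and 0.071.

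VCL (ENSG00000035403, chromosome 10, 73995193 to 74121363) stood at 1034, 1016 and 1119 normalized counts untreated and at 1123, 1100 and 1094 with isoproterenol. It was higher in pairs 1 and 2, by 0.12 and 0.11, and lower in pair 3, at -0.032. The log2 fold change was 0.067 (95% interval -0.055 to 0.19, limma adjusted p 0.827, and 0.541 with the block). VCL shares 1109 exonic bases with AP3M1 on the opposite strand, whose log2 fold change was -0.088.

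Other cytoskeletal genes known as targets of SRF with its actin-sensing cofactors were read as a list. Of 24 tested of 28 listed, 5 rose with the block and 0 fell, against 2.82% and 2.06% of all genes, and 18 were higher, with a median of 0.060. Among those 5, the largest changes were, in falling order, in TPM2, the actin cross-linker FLNA, the adhesion protein ZYX and FHL1. TPM2, a tropomyosin, averaged 554.5 ± 55.3 untreated and 643.1 ± 32.6 with isoproterenol (log2 fold change 0.22, limma adjusted p 0.0262 with the block). FLNA went from 1840 ± 62.5 to 2114 ± 154.9 (0.20, limma adjusted p 7.46e-05 with the block). ZYX went from 1560 ± 82.0 to 1769 ± 85.3 and was 0.18, 0.19 and 0.17 higher in pairs 1, 2 and 3. FHL1, a LIM-domain protein, differed by 0.10.

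Of 19 adhesion and junction genes, all tested and VCL among them, ZYX rose and CDH2, which encodes N-cadherin, fell with the block, from 11940 ± 821.5 to 10760 ± 686.2 normalized counts. These counts of 1 higher and 1 lower are near the shares of all genes, 2.82% and 2.06%. The median of that list was 0.032.

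CCN1 (ENSG00000142871, chromosome 1, 85580761 to 85584589) and CCN2 (ENSG00000118523, chromosome 6, 131948176 to 131951372) encode matricellular proteins and are known targets of both SRF and the YAP and TEAD factors. CCN1 stood at 61.6, 52.3 and 52.8 normalized counts untreated and at 48.9, 40.4 and 47.2 with isoproterenol. Every isoproterenol value lay below every untreated one, the reverse of IER2, IER3 and MCL1. The mean went from 55.5 ± 5.26 to 45.5 ± 4.51 (log2 fold change -0.28, SE 0.20, 95% interval -0.71 to 0.14), with pairs at -0.33, -0.36 and -0.16. CCN1 did not pass (limma adjusted p 0.781, and 0.563 with the block). It had only 35 to 59 reads per sample, and its spread between replicates (coefficient of variation 9.47% untreated) was below the 14.3% that counting error alone gives at this depth.

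CCN2 stood at 24.0, 25.2 and 12.4 normalized counts untreated and at 17.0, 13.8 and 15.4 with isoproterenol, from 12 to 26 reads. The lowest value was untreated replicate 3, below all isoproterenol samples, so the groups overlapped. The log2 fold change was -0.34 (95% interval -1.05 to 0.37, limma adjusted p 0.858, and 0.714 with the block), and pairs 1, 2 and 3 gave -0.48, -0.82 and 0.29. With so few reads the interval takes in 0 and sizeable changes in both directions. CCN2 shares 278 exonic bases with LINC01013, which averaged 8.47 normalized counts in both groups. CCN3, the other family member tested, averaged 91.4 ± 6.88 untreated and 90.7 ± 1.41 with isoproterenol.

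Of the genes known as targets of YAP and TEAD factors, 14 of 20 listed were tested, a list that leaves out CCN1 and CCN2. In limma 0 passed with or without the block, and the smallest adjusted p with it was 0.103. Of all genes 2.82% were called higher and 2.06% lower with the block, so 0 of 14 is near these shares. At an unadjusted p under 0.05 without the block there were 0, where 4.39% of all genes were higher. The median of the 14 was 0.060, with 10 higher.

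**Figure D3:**
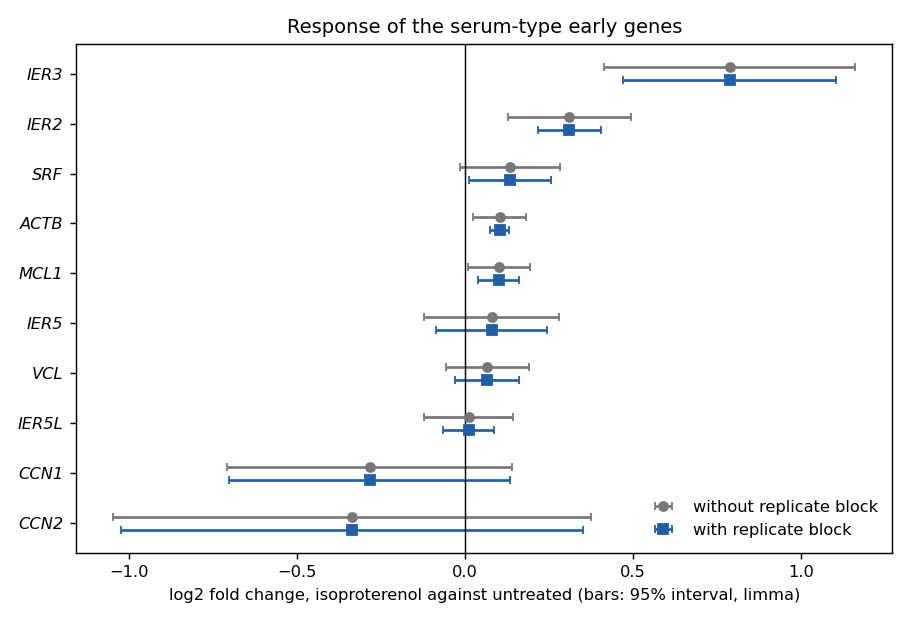
Log2 fold change of isoproterenol against untreated for each member, with its 95% interval from limma without (grey circles) and with (blue squares) the replicate block. IER3 at 0.79 and IER2 at 0.31 lie above 0 in both, the intervals of ACTB and MCL1 are short and close to 0.10, and those of CCN1 and CCN2 are wide and cross 0.

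The cAMP-type early genes, set beside the serum-type ones, had the larger median difference. Both lists were chosen with earlier results of these data known, so their counts and medians are a description and not a test. Of the 22 cAMP-type genes, all tested, 13 rose with the block in limma and 0 fell, against 2.82% and 2.06% of all genes. In limma without the block 1 (NR4A3) passed. The median log2 fold change of the 22 genes was 0.51, with 21 higher, beside 0.090 for the 10 serum-type members. Both groups of genes were measured in the same samples, so their values are given side by side and no correlation between them is drawn. In 12 cAMP-type genes the isoproterenol values all lay above the untreated ones, and 19 were higher in all 3 pairs, against 6.73% and 18.5% of all genes.

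FOSB, a subunit of the AP-1 factor, stood at 6.27, 1.94 and 10.3 normalized counts untreated and at 58.9, 138.4 and 267.7 with isoproterenol, and its log2 fold change of 4.39 was the largest. The activity-dependent factor NPAS4 followed at 4.24, the nuclear receptor NR4A1 at 2.28, the AP-1 subunit FOSL2 at 1.84 and FOS at 1.44. All but NR4A1 (adjusted p 0.119) passed in limma with the block. NR4A1 did pass with the block in edgeR (adjusted p 0.0192) and in DESeq2 (1.13e-07). DESeq2 without the block called FOSB, NR4A1, FOSL2 and FOS, but not NPAS4 (adjusted p 0.0539), and edgeR without the block did not call these genes. Even FOS differed by more on the log2 scale than IER3, the member with the largest difference. The sets still overlapped, as the cAMP-type genes ran down to -0.071, and NR4A3, at 0.49, lay below IER3.

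Medians of the cAMP-type genes in pairs 1, 2 and 3 were 0.41, 0.33 and 0.67, and those of the serum-type genes 0.13, 0.093 and 0.083. Single genes did not all follow their set. NR4A1, FOSL2 and FOS had their largest difference in pair 3, but FOSB and NPAS4 had theirs in pair 2. Among the serum-type genes, IER3, IER5, IER5L, CCN1 and CCN2 were highest in pair 3, though CCN1 stayed below 0 there. SRF, VCL and ACTB had their lowest value in that pair. Whether the pairs differed between the sets was not tested.

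**Figure D4:**
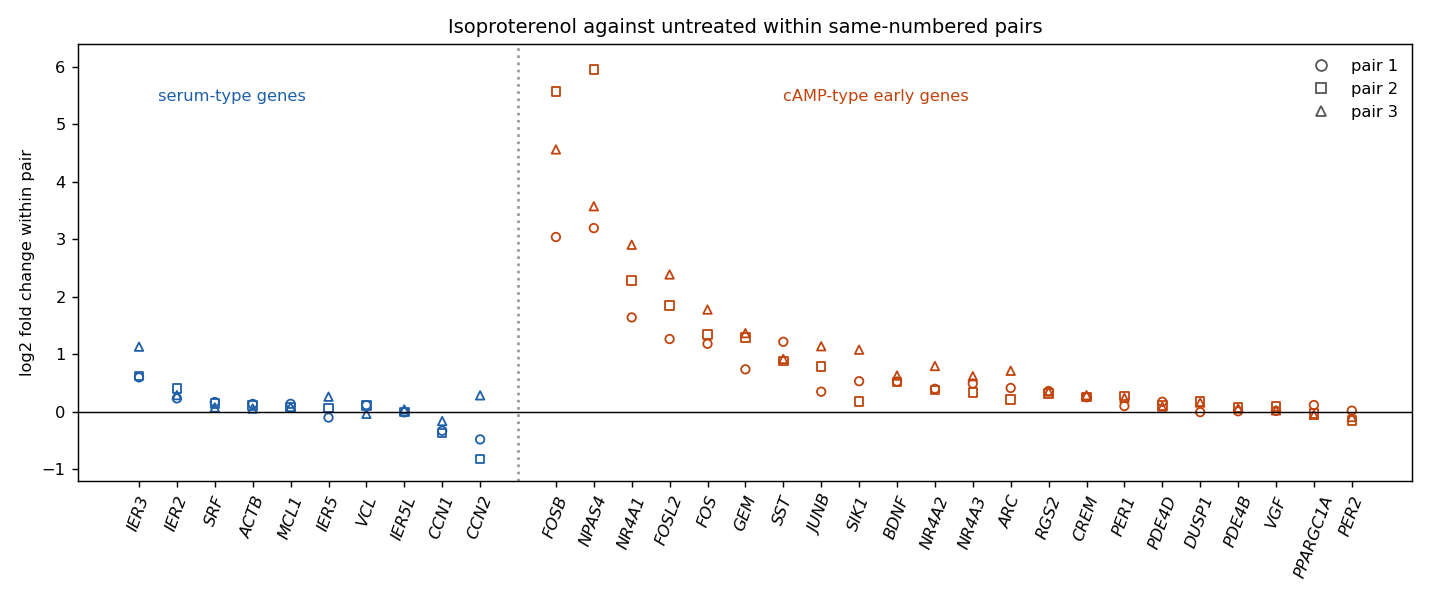
Log2 fold change of isoproterenol against untreated within pairs 1 (circles), 2 (squares) and 3 (triangles) for the 10 serum-type genes (blue) and 22 cAMP-type early genes (orange), each set ordered by its mean response. The serum-type genes lie between -0.82 and 1.14, and FOSB and NPAS4 lie above 3.

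Early genes known as targets of SRF with ternary complex factors, none of which is a member, had a median near that of the cAMP-type genes. Of 15 tested of 20 listed, 9 rose with the block and 0 fell, against 2.82% and 2.06% of all genes, with a median of 0.66 and 0.42, 0.41 and 0.99 in pairs 1, 2 and 3. This list shares 6 genes with the cAMP-type list, FOS and FOSB among them, so the lists are not separate evidence. Outside the shared genes, EGR1, a zinc finger factor, stood at 119.0, 268.0 and 226.5 normalized counts untreated and at 247.5, 536.3 and 579.6 with isoproterenol. Its groups overlapped but the isoproterenol sample was higher in 3 of 3 pairs (limma adjusted p 2.31e-19 with the block, and 0.698 without it). ATF3, a stress-responsive factor of the CREB family, went from 92.6 ± 18.9 to 166.6 ± 55.4 (log2 fold change 0.81, limma adjusted p 8.76e-06 with the block), and was the only gene of the stress list that passed.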

How the data were processed

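The authors selected poly(A) RNA, prepared directional libraries, used STAR for alignment to GRCh38 and featureCounts for gene counts. The versions of these tools, the annotation and the strand setting are not given in the sources used here. The values deposited are a signal, the read count of each gene over the DESeq2 size factor of its sample. Every value above 0 was a whole multiple of its sample's step (tolerance 0.05 reads), which gave back whole reads for 100% of values, with size factors from 0.867 to 1.033. Genes with more than 5 reads in at least 4 samples were tested (18130; 1693 were removed). With 3 samples a group, this filter can remove genes that were near 0 untreated and higher with isoproterenol. The early gene EGR3 was removed, at 3.13, 2.90 and 2.07 normalized counts untreated and 5.99, 15.0 and 30.8 with isoproterenol.

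The tests were two-sided limma 3.58.1 in R 4.3.3, with robust moderation and an intensity trend, on log2(normalized count + 1), which understates the change of low genes. Benjamini-Hochberg adjustment ran over all genes tested. edgeR 4.0.16 and DESeq2 1.42.0 were run on the recovered reads. The scripts were tested on simulated data that held no pair effects, with edgeR and DESeq2 run there without the block only. The blocked calls were therefore not checked on data with pairs like these. Groups and replicate numbers came from sample titles. Deviations from the group means, over 11587 genes averaging at least 100 normalized counts, correlated at 0.269, 0.493 and 0.388 in same-numbered pairs and at most at 0.006 in the others. All 3 pairs exceeded 0.1, so same-numbered samples were treated as pairs. Replicates were distinct libraries (chi-square per degree of freedom 3.32 to 5.46).

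Exon lengths and overlaps came from GENCODE release 44, which held 99.6% of the identifiers, and promoters from RefSeq. Reads are not independent molecules, so counting error is a lower limit of the technical error. The members and lists were chosen with earlier results of these data known. The genes named are the members, genes of the IER, CCN, BCL2 and SRF partner lists past FDR 0.05, the 5 cAMP-type genes with the largest change, the 3 genes most like SRF, and up to 4 past FDR 0.05 with the block in other lists. Genes named outside this rule are NR4A3, EGR3, CCN3, ACTG1, single cell type markers, the overlapping neighbors and 4 SRF partners, chosen after their values were seen. Alternatives were TMM and total-count scaling, other filters and pseudocounts, edgeR, DESeq2, the replicate block and leaving out samples.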

Additional observations from a re-analysis of the deposited data

How the results depend on the processing

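The replicate block moved the counts most. Past FDR 0.05, 3 genes and 0 serum-type genes passed in limma without it. With the replicate block 885 genes and 4 serum-type genes passed in limma, 977 and 4 in edgeR, and 143 and 2 in DESeq2, while DESeq2 without the block called 21 genes. The block leaves 2 residual degrees of freedom per gene, so its limma and edgeR calls rest on the spread shared across genes. In edgeR the block lowered the coefficient of variation from 0.0563 to 0.0249. Leaving out samples, the number of genes past FDR 0.05 ran from 2 to 665 and that of serum-type genes from 0 to 3. The upper ends are blocked fits without 1 pair, which were added after the data were seen and gave 531, 665 and 456 genes without pairs 1, 2 and 3. Without the block the counts reached 67 genes and 1 serum-type gene (IER3), both without isoproterenol replicate 2.

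The median of the serum-type genes ran from 0.073 to 0.11 and that of the cAMP-type genes from 0.34 to 0.57 over 21 alternatives. Scaling by TMM or total count, other filters and pseudocounts, and edgeR without the block called 0 serum-type genes. Of 207 values of single members, 183 kept direction and side of the threshold, 19 passed where they had not and 5 reversed. IER5L reversed to -0.023 and -0.0186 without untreated replicates 1 and 3, to -0.045 without isoproterenol replicate 2 and to -0.0054 without pair 3 in the blocked fit, and IER5 to -0.0136 in the last. Leaving out samples, IER5L ran from -0.045 to 0.0751 and IER5 from -0.0136 to 0.1683. Neither gene passed in any of them, and the cause was not tested. Depth limits CCN1 and CCN2, which had no adjusted p in DESeq2 with the block, and CCN2 had no value when genes averaging under 50 were removed.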
